A study of Oncorhynchus mykiss with 3 samples.

Results

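The miR-193 and miR-365 miRNAs of rainbow trout (Oncorhynchus mykiss) eggs were examined, and their members were chosen by name from the table of known miRNAs as every entry of either family number, with any letter after it and with both spellings, miR and mir. The rule took 8 of 575 known names, 6 of miR-193 and 2 of miR-365, with 11 of 1059 known sequences and 3 listed hairpin positions. It has no threshold on reads. The family itself was picked from the study's own comparison of D1PO with D14PO eggs, which called many miRNAs, omy-miR-193b-3p among them. This miRNA is among the few that the study reports as higher in D1PO eggs by both sequencing and RT-qPCR of pooled RNA. No value given here bears independently on that comparison. For RT-qPCR, the authors took only miRNAs above a minimum of fold change and of normalized reads in both of these ages. The place of omy-miR-193b-3p among known names is therefore partly fixed by that choice. The study sequenced small RNA from eggs held in the body cavity until day 1 (D1PO), day 7 (D7PO) or day 14 (D14PO) past ovulation, to look for miRNAs that go with egg quality. RNA of eggs from different females was pooled, with 1 library for each age, and the labels give survival rates of 91.8% for D1PO, 73.4% for D7PO and less than 50.0% for D14PO. The study's methods call the same figures fertilization rates, scored from early cleavage. The fish came from commercial trout stock, and no treatment beside the holding time is stated. Each unique sequence has only 1 read count, which is assigned to no library, so the values below are not divided by age and no difference between ages could be computed.

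A miRNA gene is transcribed into a hairpin whose stem is cut into short RNAs named 5p and 3p after their arm, and the RNA kept in the silencing complex pairs with target mRNAs mainly through its seed, bases 2 to 8 from the 5′ end. In vertebrates miR-193 and miR-365 genes commonly lie next to each other and can be made from a shared primary transcript. In mammals the pair is known from fat cell differentiation, and human miR-193b is known as a growth-restraining miRNA in several tumours. Trout carry more gene copies than mammals because of an added genome duplication in the salmonid line, so closely similar miRNA copies are common in the species.

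The main sequences of the 3p names are shown because they hold most of the reads and carry the 2 seeds of that arm, here in capitals:
omy-miR-193-3p: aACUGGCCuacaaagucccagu
omy-miR-193b-3p: aACUGGCCcacaaagucccgcu
omy-miR-365-3p: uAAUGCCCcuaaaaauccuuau
All 3 are 22 nt long, the length of the main sequence in 36.2% of the known names. Their base composition was not alike, with 59.1% G and C in omy-miR-193b-3p, 50.0% in omy-miR-193-3p and 31.8% in omy-miR-365-3p, around a median of 45.5% over known names. omy-miR-193-3p and omy-miR-193b-3p shared the seed ACUGGCC, with 6365 reads together, and omy-miR-365-3p had the seed AAUGCCC. No other known name and no predicted name of the series carried either seed. Among the main sequences of all 575 known names there were 400 different seeds, of which 298 belonged to a single name, so a seed held by 1 or 2 names was common in the table.

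omy-miR-193b-3p and omy-miR-193-3p are separate entries that differ at 3 of 22 bases, C9U, G20A and C21G, counted from the 5′ end with the base of omy-miR-193b-3p first. The differing bases are in capitals:
omy-miR-193b-3p: aacuggccCacaaagucccGCu
omy-miR-193-3p: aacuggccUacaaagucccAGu
Of the 3 differences, 1 lies in the first 18 bases and the others lie near the 3′ end. The authors named a known miRNA from fewer than 2 mismatches in the first 18 bases or from a BLAST E-value. Outside the family no such near copy was found. Shifts of up to 3 bases and overlaps of at least 15 were allowed. The nearest sequence of any other known or predicted name still had between 5 and 7 mismatches to a family sequence. These were counted over overlaps of 15 to 22 bases, so not always over whole sequences.

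The family held 10705 of 7684127 reads of known miRNAs, a share of 0.139% (95% Clopper-Pearson interval 0.137 to 0.142). miR-193 names held 7014 reads, or 0.0913% (0.0892 to 0.0934), and miR-365 names 3691 reads, or 0.0480% (0.0465 to 0.0496). Summed by family number, miR-193 stood at rank 61 and miR-365 at rank 71 of 139 numbers, where let and miR names of the same number count together. It was assumed, as no source says so, that each count adds up the 3 libraries. The total of the table is larger than the sum of the miRBase-mapped reads that the study lists for its libraries, so what the counts add up is not settled. All intervals cover counting error only, since PCR reads are not independent molecules and there was no replicate library.

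The 3p names were close to each other in reads. omy-miR-365-3p had 3639 reads (95% Poisson interval 3522 to 3759) and ranked 129 of 575 known names. omy-miR-193b-3p had 3607 reads (3490 to 3727) at rank 130. omy-miR-193-3p had 2758 reads (2656 to 2863) at rank 142. The first 2 of these did not differ beyond counting error, with a ratio of omy-miR-365-3p to omy-miR-193b-3p of 1.01 (95% exact interval 0.963 to 1.06). omy-miR-193-3p lay below both, with omy-miR-365-3p at 1.32 times (1.25 to 1.39) and omy-miR-193b-3p at 1.31 times (1.24 to 1.38) its reads. All 3 lay well above the median of 286 reads over known names. For omy-miR-193b-3p this is partly fixed by the read minimum through which the authors chose it for RT-qPCR. At the limits of their counting error the ranks of the 3 ran from 128 to at most 144. Ranks at the lower limits count the name itself among those above, so they are slightly too high. The study reports omy-miR-193b-3p as higher in D1PO than in D14PO eggs, and the counts are not divided by age. These ratios and ranks therefore need not hold at each age.

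**Figure D1:**
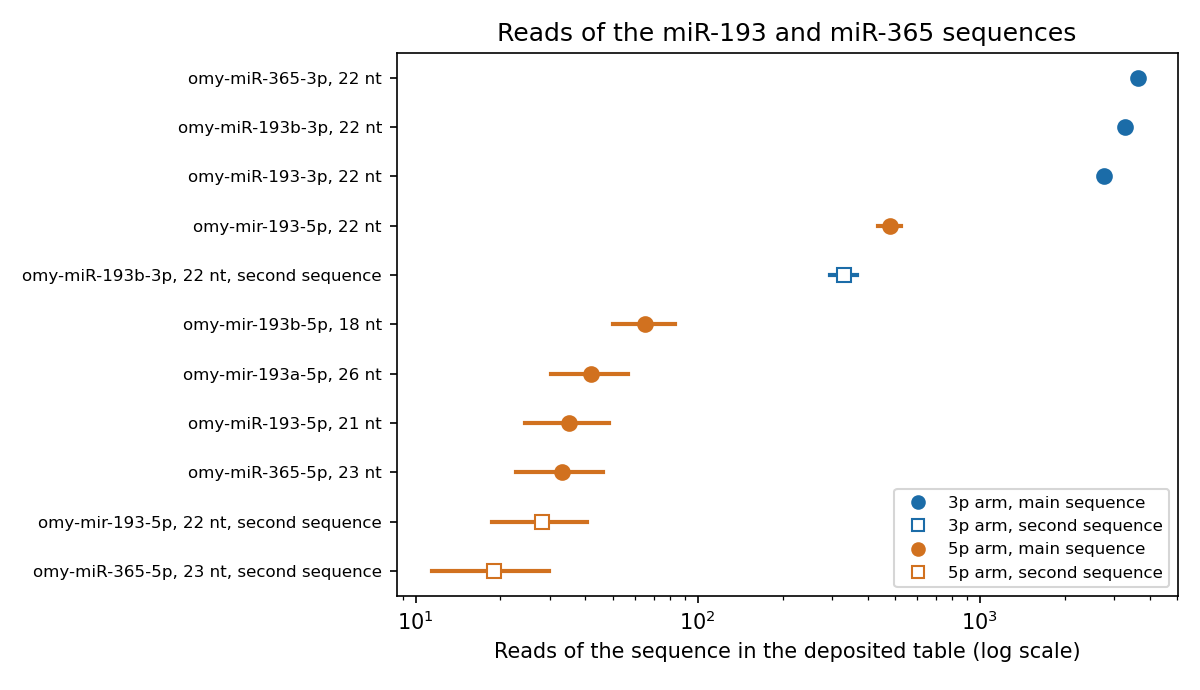
Reads of each of the 11 sequences in the deposited table (x axis, log scale), with 95% Poisson intervals as lines. Blue points are 3p and orange points 5p sequences, open squares are second sequences of a name. The 3 main 3p sequences lie between 2758 and 3639 reads, while the 5p sequences lie between 19 and 479.

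**Figure D2:**
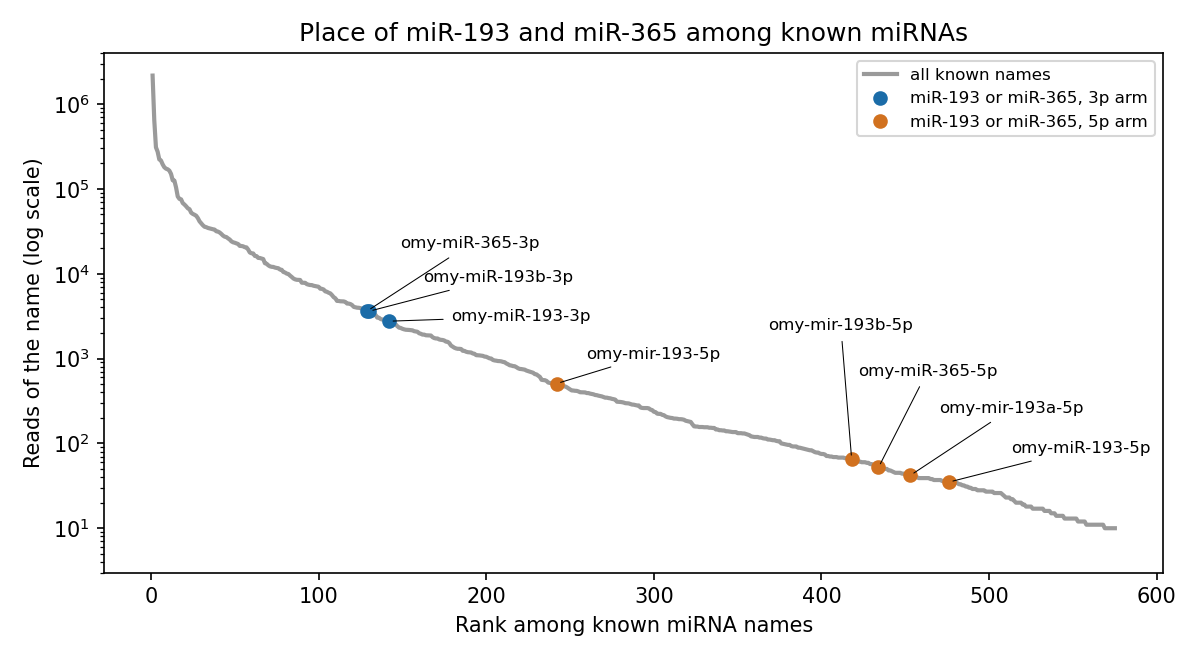
Reads of all 575 known names (y axis, log scale) against their rank (x axis), with the 8 family names marked in blue (3p) and orange (5p). The 3p names stand at ranks 129, 130 and 142, and the 5p names are spread from rank 242 to rank 476.

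The 5p names were fewer in reads and more varied. omy-mir-193-5p, spelt with a lower-case r, had 507 reads (463.8 to 553.1) at rank 242, and was the only 5p name of the family above the median of known names. The remaining 5p names had 65 reads for omy-mir-193b-5p (50.2 to 82.8), 52 for omy-miR-365-5p (38.8 to 68.2), 42 for omy-mir-193a-5p (30.3 to 56.8) and 35 for omy-miR-193-5p (24.4 to 48.7). Neighbours in this order did not differ beyond counting error, with ratios of 1.25 (0.855 to 1.84) for omy-mir-193b-5p to omy-miR-365-5p, 1.24 (0.809 to 1.91) for omy-miR-365-5p to omy-mir-193a-5p and 1.20 (0.748 to 1.94) for omy-mir-193a-5p to omy-miR-193-5p. Over its ends the order held, and omy-mir-193b-5p had 1.86 times (1.21 to 2.89) the reads of omy-miR-193-5p. The 5p names together held 701 reads, or 6.55% of the family, where 5p names held 39.9% of the reads of all known miRNAs. The latter share is weighted by reads, and omy-miR-143-3p alone had 2165860 of the 7684127 known reads at its most abundant listed position beside miR-145.

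The hairpins of miR-193 and miR-365 were listed side by side. Positions 153603034 to 153603120 of the minus strand of chrUn were given for the miR-193 hairpin, and positions 153600478 to 153600575 of that strand for the miR-365 hairpin, in a trout genome whose build the sources used here do not name. The gap between them was 2458 nt, and along the minus strand miR-193 comes first. chrUn is the name of sequence without an assigned chromosome, and whether the stretch between the hairpins is continuous was not tested. The next known hairpin on that strand was 7411763 nt away from the pair in the listed coordinates, with the same limit. The gene annotation at these positions was not used here, since the reference gene list could not be matched to an unnamed build.

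The miR-193b hairpin was listed alone, on chrUn_12, plus strand, from 28388108 to 28388185. The nearest other known hairpin on chrUn_12 was 760479 nt away in the listed coordinates, and whether that stretch is continuous was not tested. No miR-365 sequence had a position on chrUn_12, although 15 known names did. The table gives 1 position for each sequence, and further copies in the genome were not looked for. Of all 467 listed known hairpin positions, 156, or 33.4%, had another that did not overlap it within 10 kb on the same strand, so the miR-193 and miR-365 hairpins belonged to a sizeable minority and the miR-193b hairpin to the majority.

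**Figure D3:**
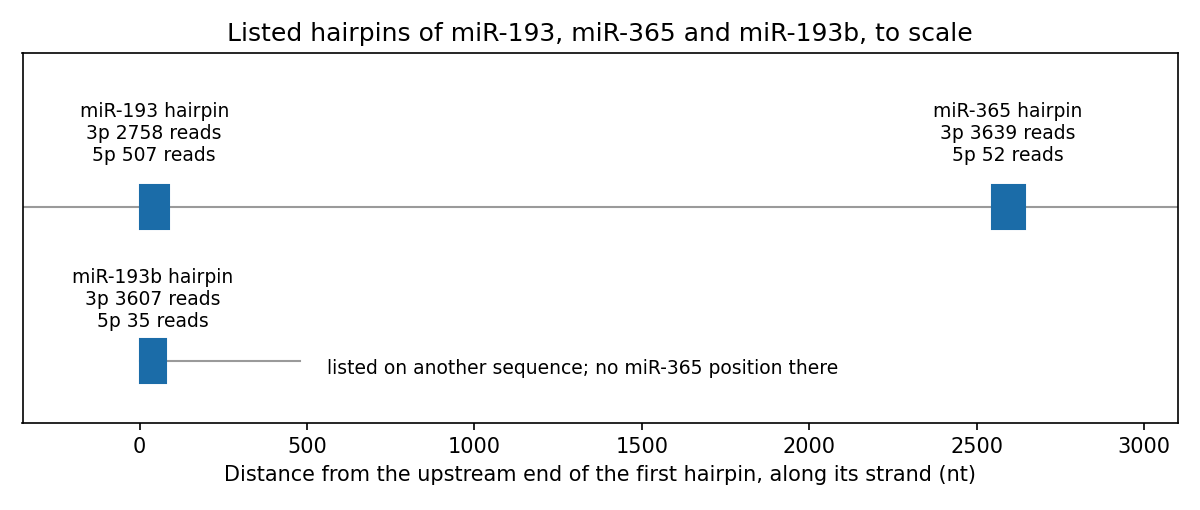
Listed hairpins as blue boxes, drawn to scale against the distance in nt from the upstream end of the first hairpin along its strand (x axis), with the reads of each arm. The miR-193 and miR-365 hairpins lie 2458 nt apart, and the miR-193b hairpin has no miR-365 position on its sequence.

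In reads of the whole hairpin the 3 were much alike, and in the balance of their arms they were not. The miR-365 hairpin had 3639 reads on its 3p arm and 52 on its 5p arm, a 5p share of 1.41% (95% Clopper-Pearson interval 1.05 to 1.84), or 0.899% from the most abundant sequence of each arm. The miR-193b hairpin had 3607 reads on its 3p arm and 35 on its 5p arm, a 5p share of 0.961% (0.670 to 1.33). That share was at most 3.79% with the 5p sequences that have no position and share 10 bases with its 5p arm. The miR-193 hairpin had 2758 reads on its 3p arm and 507 on its 5p arm, a 5p share of 15.5% (14.3 to 16.8). The intervals of miR-365 and miR-193b overlapped and that of miR-193 lay far above them, so the 3p arm was 103 times as abundant as the 5p arm at miR-193b, 70.0 times at miR-365 and 5.44 times at miR-193.

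The miR-193 and miR-193b hairpins, whose 3p arms share a seed, thus differed more in their 5p than in their 3p reads. The 5p name of the miR-193 hairpin, omy-mir-193-5p, had 14.5 times (10.3 to 21.03) the reads of omy-miR-193-5p, the 5p name of the miR-193b hairpin, while omy-miR-193-3p had fewer reads than omy-miR-193b-3p. Over the 152 of 467 listed hairpin positions with reads on both arms, the lesser arm held a median of 4.38% of the reads, with quartiles of 0.933% and 21.5%. Hairpins whose lesser arm fell under the minimum of 10 reads are missing from this set, so these values can leave out low shares. Arms listed at overlapping but not identical positions were not put together, so hairpins listed in that way can be missing too. With overlapping positions joined, the 467 became 380. The 3p arm was the higher one at 71 of the 152, the 5p arm at 80, and both were equal at 1. From placed sequences alone, the share at miR-193b was just above the lower quartile, with 39 hairpins below it. The 3.79% with unplaced sequences is closer to the median, but it is an upper limit. It counts 42 reads of omy-mir-193a-5p, which holds all 22 bases of omy-mir-193-5p, the 5p name of the miR-193 hairpin. The share at miR-193 was between the median and the upper quartile, with 102 below it.

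**Figure D4:**
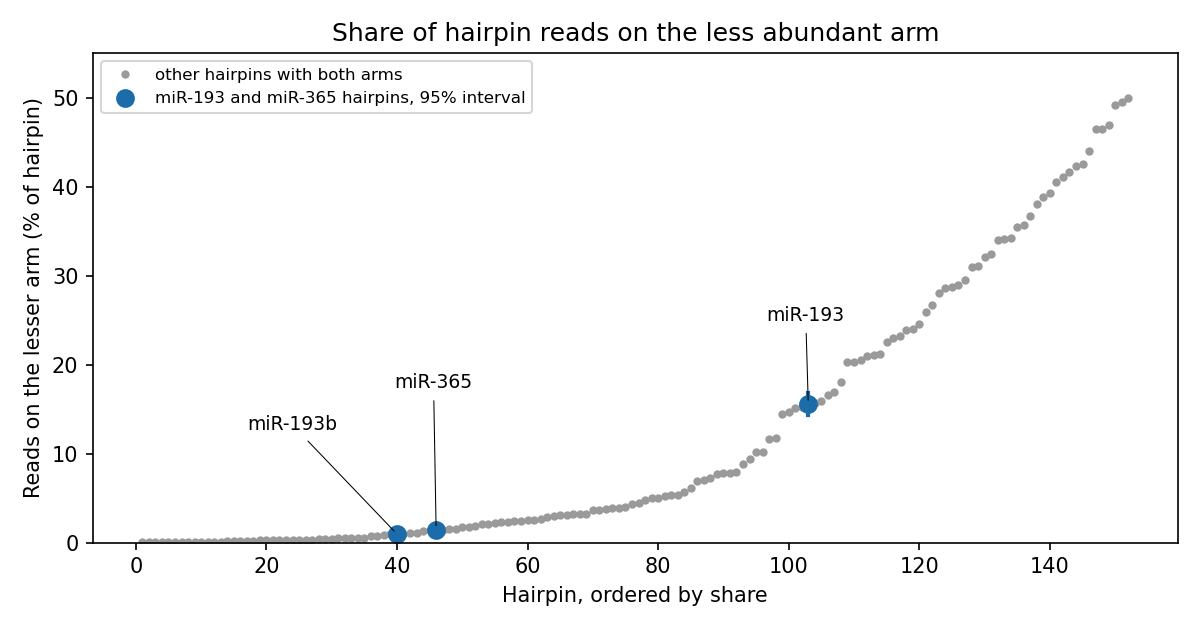
Share of hairpin reads on the less abundant arm (y axis, percent) for the 152 known hairpins with both arms listed, ordered by that share (x axis). Blue points with 95% intervals mark miR-193b at 0.961%, miR-365 at 1.41% and miR-193 at 15.5%, grey points the other hairpins.

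The 5p sequences are shown with their seeds in capitals because their names do not tell which hairpin they came from:
omy-mir-193-5p: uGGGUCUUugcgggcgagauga
omy-mir-193a-5p: uGGGUCUUugcgggcgagaugaguag
omy-miR-193-5p: cGGGAUCUugugggcgagaug
omy-mir-193b-5p: uGGGCGAGaugaguauuc
omy-miR-365-5p: aGGGACUUucaggggcagcugug
omy-mir-193-5p and omy-miR-193-5p differ in name only by the case of 1 letter, but were placed at different hairpins and had different seeds. The known table holds 74 such groups with 148 names. omy-miR-193-5p, without a letter, was listed at the hairpin of omy-miR-193b-3p. Whether the letter a or b sorts the miR-193 5p names by hairpin could not be judged. The names with a letter, omy-mir-193a-5p and omy-mir-193b-5p, had no position in the trout genome.

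omy-mir-193a-5p, of 26 nt, holds all 22 bases of omy-mir-193-5p and goes on with 4 more at its 3′ end. It therefore had the seed of omy-mir-193-5p, GGGUCUU, which the 2 names carried with 549 reads. omy-mir-193b-5p, of 18 nt, matched the 3′ part of these sequences instead. Its bases 1 to 11 are the last 11 bases of omy-miR-193-5p, and its bases 2 to 15 are bases 12 to 25 of omy-mir-193a-5p, with the shared runs in capitals:
omy-miR-193-5p: cgggaucuugUGGGCGAGAUG
omy-mir-193b-5p: UGGGCGAGAUGaguauuc
omy-mir-193a-5p: ugggucuuugcGGGCGAGAUGAGUAg
omy-mir-193b-5p: uGGGCGAGAUGAGUAuuc
Its seed, GGGCGAG, was the seed of no other name of either table. The same bases lie further along in omy-miR-193-5p and omy-mir-193a-5p, within the shared runs. The 2 sequences without a position held 107 reads, or 1.00% of the family, against 2.12% of the reads of all known miRNAs in 230 such sequences. With both added to each hairpin whose placed 5p sequence shares at least 10 bases with them, the 5p share was 18.2% at miR-193 and 3.79% at miR-193b, the same 107 reads being counted at both. Both are upper limits. The 3.79% counts 42 reads of omy-mir-193a-5p, which share a run of only 10 bases with omy-miR-193-5p. The 18.2% counts 65 reads of omy-mir-193b-5p, which share a run of only 11 bases with omy-mir-193-5p.

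omy-miR-193-3p and omy-miR-365-3p were each listed as 1 sequence, as were 42 of the 142 known names with at least the reads of omy-miR-193-3p. The median of these 142 names was 2 sequences. No family name was listed with a variant under the same name that differed in its 3′ end alone. However, omy-mir-193a-5p, listed under its own name, is the main sequence of omy-mir-193-5p with 4 more bases at the 3′ end. The second sequence differed from the main one in its 3′ end alone in 110 of 263 known names with several sequences, in its 5′ end alone in 19, by 1 substitution in 33 and by 2 substitutions in 12. The 3 family names with a second sequence, omy-miR-193b-3p, omy-mir-193-5p and omy-miR-365-5p, all fell among the last 2 kinds.

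The second sequences are shown with the substituted bases in capitals, each with its main sequence below it:
omy-miR-193b-3p, second: aacuggcccGcaaagucccgcu
omy-miR-193b-3p, main: aacuggcccacaaagucccgcu
omy-mir-193-5p, second: ugggucuuugcgggcAagGuga
omy-mir-193-5p, main: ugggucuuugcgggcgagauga
omy-miR-365-5p, second: agggacuuuUaggggcagcugug
omy-miR-365-5p, main: agggacuuucaggggcagcugug
The second sequence of omy-miR-193b-3p, A10G from its 5′ end, had 329 reads against 3278 of the main one, or 9.12% (8.20 to 10.1) of the name. That of omy-mir-193-5p, with G16A and A19G, had 28 reads against 479, or 5.52% (3.70 to 7.88). That of omy-miR-365-5p, C10U, had 19 reads against 33, or 36.5% (23.6 to 51.0), an interval that reaches an equal split. Over the 263 names, the second sequence held a median of 29.2% of the reads with quartiles of 12.7% and 39.6%, so those of omy-miR-193b-3p and omy-mir-193-5p were below the lower quartile, with 53 and 40 names lower.

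None of the substitutions lies in a seed, so the seeds of these names were the same in both of their sequences. The second and main sequences were listed at 1 hairpin position in each case, as in 29 known names whose second sequence has 1 or 2 substitutions, although the genome sequence at 1 position can match only 1 of them exactly. Among the 33 names with 1 substitution, C to U was seen in 9 and A to G in 8, the 2 most frequent kinds, and the family gave 1 of each. Where the second sequences came from was not tested.

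The pairing of the arms was computed from the sequences to see how well the listed arms fit together. omy-mir-193a-5p and omy-mir-193b-5p have no position and were left out. The main arms of the miR-193b hairpin formed 16 base pairs with a duplex energy of -29.1 kcal/mol, those of the miR-193 hairpin 15 with -23.7 and those of the miR-365 hairpin 15 with -20.3. Over the 152 hairpins with both arms the medians were 16 base pairs and -20.7 kcal/mol, with energy quartiles of -23.1 and -17.7. By energy the arms of miR-193b and of miR-193 thus paired more strongly than those of most hairpins, and those of miR-365 were near the median. In base pairs miR-193b was at the median, and miR-193 and miR-365 were at the lower quartile of 15. Energy did not always single out the listed partner. Among main sequences, omy-miR-365-5p reached -24.6 with omy-miR-193b-3p and -23.1 with omy-miR-193-3p, against -20.3 with omy-miR-365-3p. omy-mir-193-5p reached -25.6 with omy-miR-193b-3p, and omy-miR-193-3p -25.5 with omy-miR-193-5p, against -23.7 with each other. omy-miR-193-5p, omy-miR-193b-3p and omy-miR-365-3p paired most strongly with their listed partners.

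The second sequences changed the pairing of the listed arms in different ways. The G10 sequence of omy-miR-193b-3p formed 16 base pairs with its listed partner at -28.7 kcal/mol, near the -29.1 of the main sequence. The U10 sequence of omy-miR-365-5p formed 16 base pairs at -24.4 with omy-miR-365-3p, against 15 at -20.3 for the more abundant C10 sequence. The second sequence of omy-mir-193-5p gave 16 base pairs and -22.1 kcal/mol with omy-miR-193-3p, against 15 and -23.7 for the main one. Across hairpins, the strongest of the computed duplexes was between the main sequence of omy-mir-193-5p and the G10 sequence of omy-miR-193b-3p, arms that were listed at different hairpins, with 15 base pairs and -31.0 kcal/mol. This pairing was set beside the others after its value was seen, and it is a property of the letters only, with no test of whether the 2 RNAs come from 1 stem.

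The most abundant names listed at the miR-193 and miR-365 hairpins were closer in reads to each other than those of 3 other neighbouring pairs. These came from a list of 5 pairs chosen with earlier results of these data known. Other neighbouring hairpins were not compared. Where a pair had several adjacent positions, those with the most reads were taken. Counting only reads at the adjacent positions of each pair, omy-miR-365-3p and omy-miR-193-3p stood at 3639 and 2758 reads, a ratio of 1.32 (1.25 to 1.39). omy-miR-194a-5p and omy-miR-192a-5p, from hairpins 277 nt apart, had 2315 and 5971 reads, a ratio of 0.388 (0.369 to 0.407). omy-miR-145-5p and omy-miR-143-3p, 413 nt apart, had 20438 and 2165860 reads, a ratio of 0.00944 (0.00931 to 0.00957). omy-miR-222b-3p and omy-miR-221-5p, 86 nt apart, had 7126 and 183 reads, a ratio of 38.9 (33.6 to 45.3), but no 3p sequence of miR-221 was listed at that position. miR-199 and miR-214 had 5 and 2 listed positions, with no pair that did not overlap within 10 kb on the same strand. Opposite strands were not compared. miR-144 had no listed position, so its distance to miR-451 could not be examined. Of the pairs named here, 4 had positions within 10 kb of each other on the same strand. Among these the gap of 2458 nt between miR-193 and miR-365 was the widest.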

How the data were processed

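Small RNA libraries of trout eggs, 1 pooled library for each of 3 ages, were sequenced by the authors on an Illumina instrument. The authors dropped unclear reads, adapters, sequences under 10 copies, sequences outside a length window and those that matched mRNA, Rfam or Repbase. The upper limit of the window was 26 nt, the length of omy-mir-193a-5p, so longer forms were not kept. The authors assigned known miRNAs by BLAST against miRBase. They deposited counts of reads for each unique sequence in 2 tables, known (7684127 reads) and predicted miRNAs (333447 reads). The count column names no library. A read minimum is visible in the known table, whose lowest count is 10, so rarer sequences enter no share.

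Names were read with spaces removed and counts were summed by name. Exact Poisson, Clopper-Pearson and conditional binomial intervals at 95% were computed, tested on simulated data, and hold only if the numbers are raw counts. Arms were assigned to a hairpin by identical listed positions. Duplexes of main and second sequences of the arms with a listed position were folded with ViennaRNA 2.7.2. The tools were SciPy 1.17.1, pandas 2.3.3, matplotlib 3.10.9 and numpy 2.4.6 under Python 3.11.15. The planned comparison of egg ages was not made because no column of the deposited tables gives a single age. Every family name is named, with the main names, where adjacent positions were listed, of 5 neighbouring pairs (miR-143 and miR-145, miR-144 and miR-451, miR-199 and miR-214, miR-221 and miR-222, miR-192 and miR-194) and any name that shares a family seed. The family and the lists were chosen with earlier results of these data known.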

Additional observations from a re-analysis of the deposited data

How the results depend on the processing

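Of 30 values from other settings, 17 stayed within the counting interval of the value or within 1.5 times of a count, and 13 did not. The share of the family in known reads, 0.139%, was 0.144% with sequences of 20 to 24 nt and 0.183% with the most abundant sequence of each name. With unplaced 5p sequences that share 10 bases, counted at each hairpin they match, the 5p share was at most 18.2% at miR-193 and at most 3.79% at miR-193b. With the most abundant sequence of each arm it was 0.899% at miR-365, below 1.06% at miR-193b, so the order of these 2 hairpins turned round. The order also turned with the unplaced sequences (at most 3.79% at miR-193b, 1.41% at miR-365). There, 42 reads of omy-mir-193a-5p, which holds all of omy-mir-193-5p, were counted at miR-193b too. The ratio of miR-365 to miR-193 was 1.13 with both arms of each hairpin. Of all known names, 128 had more reads than omy-miR-365-3p, 129 more than omy-miR-193b-3p and 141 more than omy-miR-193-3p. By study number 126 lay above omy-miR-365-3p. By most abundant sequence 114, 120 and 129 names lay above omy-miR-365-3p, omy-miR-193b-3p and omy-miR-193-3p in that order, and 143, 144 and 161 with predicted names included. A minimum of 50 reads left no 5p sequence at miR-193b and miR-365, and a minimum of 20 reads no second sequence in omy-miR-365-5p, so these gave no value. Hairpins with a neighbour numbered 146 within 5 kb, 169 within 50 kb and 129 of 380 after overlapping positions were joined. No paired analysis was possible because the deposited counts used here cannot be divided among the ages.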
